A study of Mus musculus with 8 samples.

Results

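The genes described here are 9 members of the pathway through which parathyroid hormone-related protein (PTHrP) restrains chondrocyte hypertrophy. They comprise the ligand Pthlh, its receptor Pth1r, the G protein gene Gnas, the regulators Hdac4, Sik3, Mef2c and Zfp521, and the hypertrophy products Col10a1 and Panx3. They were taken by gene name from the deposited table of protein-coding genes, where each name occurred once, so that 9 of 22053 listed rows were described. The series holds 8 RNA-seq libraries, all of wild-type mice taken at postnatal day 10. The 4 vSSC libraries (candidate vertebral skeletal stem cells) came from spine, and the 4 lbSSC libraries (long bone skeletal stem cells) from femur and tibia. Replicates 1 and 2 of each group were male and replicates 3 and 4 female. Both groups were sorted with one gate, which kept CD200-positive cells that lacked CD45, TER119, CD31, 6C3, Thy and CD105. The labels do not say whether animals were pooled for a library, so p-values measure only the spread between these libraries.

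In the growth plate, PTHrP is secreted by resting and periarticular chondrocytes and acts on Pth1r in the cells below them. Pth1r couples to the stimulatory G protein alpha subunit encoded by Gnas, which raises cyclic AMP and activates protein kinase A. This pathway keeps salt-inducible kinases such as Sik3 inactive and class IIa histone deacetylases such as Hdac4 in the nucleus, where they hold back Mef2 and Runx2 and so delay hypertrophy. Prehypertrophic cells that escape the signal express Ihh, which in turn raises Pthlh, and hypertrophic cells make collagen X, the product of Col10a1.

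Levels are given in FPKM, fragment counts scaled by transcript length and by the total of the library, which allows levels of different genes to be set side by side. Group values are mean ± SD with n = 4. Differences are vSSC minus lbSSC of log2(FPKM + 1) ± SE, a scale that compresses changes at the low end. The test was limma over 10729 genes, with Benjamini-Hochberg adjusted p-values and a threshold of 0.05. FPKM sums ran from 517314 to 571869 in vSSC and from 460302 to 521489 in lbSSC, and the read depth behind them is unknown. Ribosomal protein genes held 18.2 to 21.3% of the FPKM in vSSC and 15.6 to 18.3% in lbSSC. The cells carried cartilage transcripts at both sites. The 10 chondrocyte markers summed to 19301 to 29831 FPKM in vSSC and 20560.3 to 31015 in lbSSC. Col2a1 alone held 7443 to 15067 FPKM in vSSC and 10803 to 20002 in lbSSC. Hapln1 (0.91 ± 0.12, adjusted p = 0.000389) and Matn3 (1.49 ± 0.13, adjusted p = 1.74e-05) were higher in vSSC. The 8 others did not pass, and 14.3% of all tested genes were higher in vSSC. None of the 8 endothelial markers reached 1 FPKM in any library. Of the 10 haematopoietic markers, Ptprc, Cd68 and Csf1r stayed under 1 FPKM in all libraries. The globin gene Hbb-bs stood at 2436 to 3229.6 FPKM in vSSC and 2546 to 5482 in lbSSC. Of 7 tested haematopoietic markers 5 were higher in vSSC, where 14.3% of all tested genes were.

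All 9 genes passed the filter of at least 1 FPKM in at least 4 libraries, and 6 of them differed between the sites, where 23.5% of all tested genes did. Pth1r, Mef2c and Panx3 rose in vSSC, and Gnas, Zfp521 and Col10a1 fell. Of all tested genes 14.3% were higher and 9.17% lower in vSSC. In each of these 6 genes all libraries of one site lay above all libraries of the other, as in 25.8% of all tested genes. Pthlh, Hdac4 and Sik3 overlapped between the sites. The median difference over the 9 genes was -0.27, beside 0.08 over all tested genes. In bulk libraries a lower level can mean fewer cells with the transcript or less of it per cell, and these cannot be told apart.

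**Figure D1:**
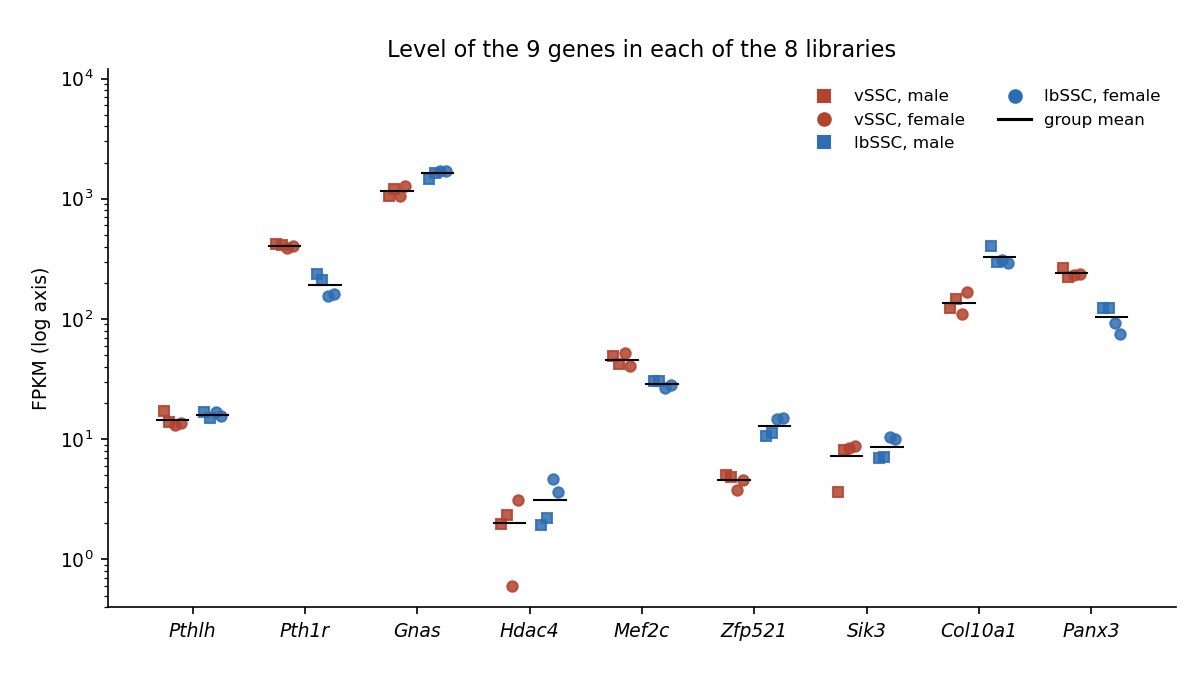
FPKM (log axis) of the 9 genes in each library, with vSSC in red, lbSSC in blue, squares for male and circles for female libraries, and a line at the group mean. Pth1r, Mef2c and Panx3 lie higher in all 4 vSSC libraries and Gnas, Zfp521 and Col10a1 in all 4 lbSSC libraries, while the points of Pthlh, Hdac4 and Sik3 overlap.

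Pthlh encodes the ligand, and its level was close at the 2 sites. Its FPKM was 17.3, 13.97, 13.05 and 13.7 in vSSC replicates 1 to 4 and 16.9, 14.9, 16.7 and 15.5 in lbSSC replicates 1 to 4. The highest value of all belonged to a vSSC library and the next 2 to lbSSC libraries. Means were 14.5 ± 1.90 and 16.0 ± 0.943 FPKM, and the difference of -0.14 ± 0.12 did not pass the test (adjusted p = 0.416). The 95% interval of that difference ran from -0.40 to 0.12, so a difference within those bounds could not be told from none. The difference was -0.22 without vSSC replicate 1. The genes for the related ligands Pth and Pth2 were listed at 0 in all 8 libraries. Pthlh lies on chromosome 6 at 147252101 to 147264183 (GRCm38, like all coordinates here), with no other annotated gene overlapping it.

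Pth1r, the receptor shared by PTHrP and parathyroid hormone, was among the abundant transcripts and rose in vSSC. It read 422, 414, 393 and 401 FPKM in the vSSC libraries. In the lbSSC libraries it read 237, 212, 155 and 162 FPKM. The vSSC values lay close together, with a coefficient of variation of 3.18%, and all exceeded the highest lbSSC value. The means of 407 ± 12.95 and 192 ± 39.5 FPKM are 2.13-fold apart, a difference of 1.11 ± 0.14 (adjusted p = 0.000228). Pth2r, the other receptor of the family, was listed at 0 in every library. The Pth1r to Pthlh ratio of FPKM was 28.4 ± 2.67 in vSSC and 12.01 ± 2.51 in lbSSC, with ranges of 24.4 to 30.1 and 9.28 to 14.2. This ratio is taken within a library and does not change with a single scaling factor per library.

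Pth1r lies on chromosome 9 at 110722085 to 110747145, on the minus strand, and shares 95 exonic bases with Myl3 on the other strand. Myl3 stayed under 2 FPKM (at most 1.79), far below Pth1r. RefSeq gives Pth1r 3 start sites, which FPKM per gene does not resolve. The 250 bases before the starts at 110747145 and 110743686 are shown because the receptor was the gene of the signalling core that rose most. Capitals mark the only match found, to the short core of the cyclic AMP response element.
Pth1r, chr9:110747146-110747395, minus strand: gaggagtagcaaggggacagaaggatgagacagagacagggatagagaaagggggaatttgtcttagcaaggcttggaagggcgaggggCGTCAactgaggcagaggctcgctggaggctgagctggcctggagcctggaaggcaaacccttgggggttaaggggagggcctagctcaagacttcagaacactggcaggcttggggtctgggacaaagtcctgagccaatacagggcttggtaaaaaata
Pth1r, chr9:110743687-110743936, minus strand: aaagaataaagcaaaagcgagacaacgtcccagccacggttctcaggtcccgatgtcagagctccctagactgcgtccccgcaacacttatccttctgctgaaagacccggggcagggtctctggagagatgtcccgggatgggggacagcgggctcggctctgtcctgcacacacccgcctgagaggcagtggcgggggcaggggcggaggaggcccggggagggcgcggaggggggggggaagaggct
Both strands were searched for 7 motifs, and their shares are given over 32851 RefSeq windows of this length. The short cyclic AMP response core TGACG was held by 17.8% of all windows. The full element TGACGTCA, which contains that core, was held by 1.55%. The Runx core TGTGGT was held by 14.0%, and the Mef2 consensus by 3.20%. The AP-1 motif TGANTCA was held by 6.75% and the Gli motif GACCACCCA by 0.225%. The TATA box TATAAA was held by 12.4%. The first window held TGACG once, in reverse at positions -161 to -157 from the start, and the second window held none of these motifs. Windows were listed for 7 of the 9 genes, and not for Panx3 and Zfp521.

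Gnas encodes the G protein subunit that links the receptor to adenylyl cyclase, and it was the most abundant of the 9 genes. It read 1063, 1209.65, 1054 and 1283 FPKM in vSSC and 1455, 1624, 1715 and 1701 in lbSSC, so that every lbSSC library lay above every vSSC library. Among all listed rows it ranked between 29 and 93. Means were 1153 ± 113 and 1624 ± 119 FPKM, 1.41-fold higher in lbSSC (-0.50 ± 0.12, adjusted p = 0.0118). The call was lost when the share of ribosomal protein genes entered as a covariate (-0.24, adjusted p = 0.213) and without both vSSC replicates 1 and 3 (-0.38, adjusted p = 0.144). Gnas lies on chromosome 2 at 174284320 to 174346744, an imprinted locus with several promoters. Its exons share 1469 bases with Gm20721 and 988 with Nespas, both on the other strand. Gm20721 was listed at 21.9 to 37.3 FPKM in vSSC and 1.55 to 55.6 in lbSSC. The library chemistry does not mark strand, so reads from such overlaps cannot be told apart.

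Other genes of the cyclic AMP pathway moved in both directions. Pairs of values joined by "against" give vSSC first and lbSSC second. Of 24 tested genes of the cyclic AMP and protein kinase A list, 2 rose, 6 fell with Gnas among them, and 16 did not pass. Of all tested genes 23.5% were called. The median of the list was -0.10. Prkar1b, a regulatory subunit of protein kinase A, averaged 1.32 ± 0.435 against 4.27 ± 0.844 FPKM (-1.19 ± 0.18, adjusted p = 0.000922). Prkar2b, another regulatory subunit, went the other way with 10.3 ± 1.36 against 5.55 ± 0.830 FPKM (0.78 ± 0.14, adjusted p = 0.00319). The phosphodiesterase Pde7b, which degrades cyclic AMP, was at 6.08 ± 2.24 against 15.7 ± 1.86 FPKM (-1.28 ± 0.19). The adenylyl cyclase Adcy9 was at 0.756 ± 0.196 against 1.72 ± 0.181 FPKM (-0.64 ± 0.15). With the ribosomal share as a covariate the calls of Prkar2b, Pde7b and Adcy9 were lost (adjusted p = 0.195, 0.0950 and 0.411), that of Adcy9 also without vSSC replicates 1 and 3.

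Among regulators of the receptor and other G proteins, 1 of 10 tested genes rose and 2 fell, where 23.5% of all tested genes were called. The median was -0.05. Ramp2, an accessory protein that binds family B receptors including Pth1r, averaged 39.4 ± 7.21 against 12.6 ± 2.62 FPKM (1.57 ± 0.17, adjusted p = 9.55e-05). Arrb1, the beta-arrestin that desensitises such receptors, was at 3.23 ± 0.894 against 6.34 ± 0.805 FPKM (-0.81 ± 0.17, adjusted p = 0.00710). The receptor kinase Grk5 was at 3.50 ± 0.635 against 5.83 ± 0.823 FPKM (-0.60 ± 0.15, adjusted p = 0.0159). The calls of Arrb1 and Grk5 were lost with the ribosomal share as a covariate (adjusted p = 0.165 and 0.679), that of Grk5 also on leaving out lbSSC replicate 3 or 4, or both vSSC replicates 1 and 3. Ramp2 kept its call in all 21 alternatives.

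Hdac4, the histone deacetylase that holds Mef2 factors and Runx2 inactive, was expressed at a low level and varied widely. It read 1.95, 2.34, 0.599 and 3.14 FPKM in vSSC and 1.94, 2.22, 4.65 and 3.60 in lbSSC. The lowest value was that of vSSC replicate 3 and the highest that of lbSSC replicate 3, with overlap between. Means were 2.01 ± 1.06 and 3.10 ± 1.26 FPKM, and the difference of -0.48 ± 0.29 did not pass (adjusted p = 0.251), with a 95% interval from -1.12 to 0.16. It was -0.20 without vSSC replicate 3 and -0.31 without lbSSC replicate 3. Sik3, the kinase that promotes hypertrophy by inactivating Hdac4, read 3.64, 8.12, 8.45 and 8.77 FPKM in vSSC and 6.99, 7.15, 10.4 and 10.0 in lbSSC. One vSSC library, replicate 1, stood far below the rest. The difference of -0.27 ± 0.24 did not pass (adjusted p = 0.434), and its 95% interval ran from -0.78 to 0.25. Without vSSC replicate 1 it was -0.0100 (adjusted p = 0.973). Hdac4 lies on chromosome 1 at 91928779 to 92195699 and Sik3 on chromosome 9 at 46012820 to 46224194. Their annotated exons cover 15813 and 9318 bases, where the median of tested genes with an annotated length was 4438. The exons of Hdac4 share 3536 bases with the non-coding gene Gm26720 on the other strand.

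Mef2c, a transcription factor that drives chondrocyte hypertrophy and the target of Hdac4, rose in vSSC. It read 49.0, 41.9, 51.7 and 40.7 FPKM in vSSC and 30.2, 30.3, 26.8 and 28.3 in lbSSC, without overlap. Means were 45.8 ± 5.34 and 28.9 ± 1.67 FPKM, 1.59-fold higher in vSSC (0.64 ± 0.11, adjusted p = 0.00198). The call was lost with the ribosomal share as a covariate (0.38, adjusted p = 0.112). It held without vSSC replicates 1 and 3 (0.50, adjusted p = 0.0267). Mef2c lies on chromosome 13 at 83504034 to 83667080. Of 16 tested genes of the list of class IIa deacetylases, salt-inducible kinases, CRTC coactivators and Mef2 factors, 2 rose with Mef2c among them and 2 fell. That share of calls is near the 23.5% of all tested genes, and the median was -0.24. Of the other Mef2 genes, Mef2a and Mef2d did not pass: Mef2a was at 26.5 ± 2.99 against 30.7 ± 2.40 FPKM (-0.21 ± 0.11, adjusted p = 0.201) and Mef2d at 20.6 ± 7.52 against 24.0 ± 4.14 (-0.28 ± 0.25, adjusted p = 0.433), while Mef2b stayed under 1 FPKM and was not tested. Crtc1 and Crtc3, coactivators that salt-inducible kinases keep out of the nucleus, were at 2.49 ± 0.502 against 4.62 ± 0.937 FPKM (-0.68 ± 0.17) and at 2.12 ± 0.813 against 3.79 ± 0.760 (-0.65 ± 0.21, adjusted p = 0.0462). The phosphatase subunit Ppp2ca was at 63.2 ± 7.39 against 43.8 ± 6.50 FPKM (0.53 ± 0.13). All 3 of these calls were lost with the ribosomal share as a covariate and without vSSC replicates 1 and 3, that of Crtc1 also without lbSSC replicate 3, and that of Crtc3 in 12 of 20 alternatives.

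Zfp521, a zinc finger protein that acts downstream of PTHrP and represses Runx2, fell in vSSC. It read 5.07, 4.82, 3.77 and 4.57 FPKM in vSSC and 10.6, 11.3, 14.8 and 14.9 in lbSSC, with a wide gap between the sites. Means were 4.56 ± 0.566 and 12.9 ± 2.27 FPKM, 2.83-fold higher in lbSSC (-1.31 ± 0.15, adjusted p = 0.000119). The gene lies on chromosome 18. Of 8 tested genes of the list of Zfp521 and its partners, 2 rose and 2 fell with Zfp521 among them, where 23.5% of all tested genes were called. The median was 0.10. Zfp423, its closest relative, also fell, with 0.818 ± 0.695 against 2.65 ± 1.22 FPKM (-1.02 ± 0.29, adjusted p = 0.0282), although its libraries overlapped and the call was lost in 8 of 20 alternatives. Runx2 itself, the factor Zfp521 restrains, was at 14.96 ± 4.85 against 12.9 ± 1.81 FPKM (0.15 ± 0.21, adjusted p = 0.615). Cbfb, the partner subunit of Runx factors, was at 116 ± 16.1 against 67.4 ± 3.72 FPKM (0.77 ± 0.11, adjusted p = 0.000731). Ebf1, a factor that Zfp521 binds, was at 5.16 ± 3.47 against 1.29 ± 0.276 FPKM (1.30 ± 0.28, adjusted p = 0.00790). Its call was lost with the ribosomal share as a covariate (adjusted p = 0.423).

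The 2 hypertrophy products moved in opposite directions. Col10a1 encodes collagen X of the hypertrophic zone and fell in vSSC. It read 124, 147, 110.3 and 167 FPKM in vSSC and 405, 296, 310.4 and 291 in lbSSC, so that the lowest lbSSC value still lay above every vSSC value. Means were 137 ± 24.8 and 325 ± 53.4 FPKM, 2.38-fold higher in lbSSC (-1.25 ± 0.15, adjusted p = 0.000176). Panx3, a channel protein of prehypertrophic and hypertrophic chondrocytes and of osteoblasts, read 266, 222, 230.5 and 238 FPKM in vSSC and 123, 123, 92.7 and 75.4 in lbSSC. Every vSSC library lay above every lbSSC library. Means were 239 ± 18.99 and 104 ± 23.6 FPKM, 2.31-fold higher in vSSC (1.23 ± 0.15, adjusted p = 0.000245).

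Within a library the Panx3 to Col10a1 ratio of FPKM was 2.14, 1.51, 2.09 and 1.43 in vSSC and 0.305, 0.415, 0.299 and 0.259 in lbSSC. Panx3 thus exceeded Col10a1 in all 4 vSSC libraries and lay below it in all 4 lbSSC libraries, with mean ratios of 1.79 ± 0.374 and 0.319 ± 0.0669 that are 5.61-fold apart. The Pth1r to Panx3 ratio, by contrast, was 1.71 ± 0.116 in vSSC and 1.87 ± 0.216 in lbSSC, with overlapping ranges of 1.59 to 1.87 and 1.67 to 2.15. Of all pairs among the 9 genes, Pth1r and Panx3 were the most alike, with a root mean square difference of 0.13 over the 8 libraries in log2(FPKM + 1) centred on each gene's mean. The next pair, Pthlh and Gnas, stood at 0.26.

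**Figure D2:**
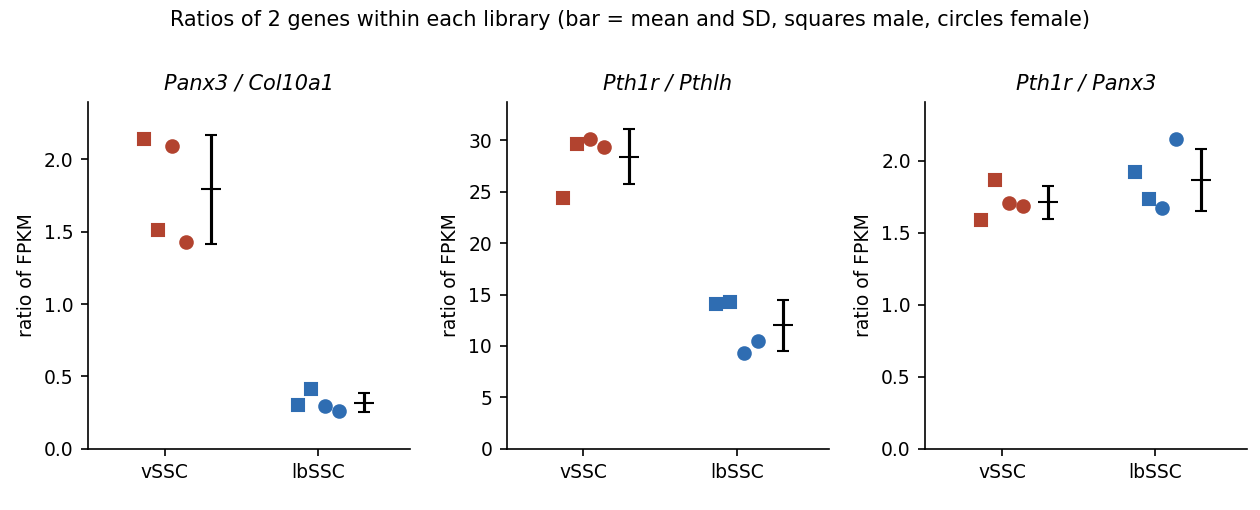
Ratios of the FPKM of 2 genes within each library, for Panx3 over Col10a1, Pth1r over Pthlh and Pth1r over Panx3, with black bars at mean and SD of 4 libraries. The first ratio is 1.79 in vSSC and 0.319 in lbSSC and the second 28.4 and 12.01, without overlap, whereas the third overlaps at 1.71 and 1.87.

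Col10a1 lies on chromosome 10 at 34389981 to 34397085 and sits within Nt5dc1 on the other strand, with 18 shared exonic bases. Nt5dc1 stayed between 4.55 and 6.62 FPKM in all libraries and was far below Col10a1. Panx3 lies on chromosome 9 at 37659902 to 37669222 with no annotated gene overlapping it. The 250 bases before the RefSeq start of Col10a1 at 34389981 are shown because this gene marks the end of the pathway and has 1 start. Capitals mark the single match, a TATA box at positions -32 to -27.
Col10a1, chr10:34389731-34389980, plus strand: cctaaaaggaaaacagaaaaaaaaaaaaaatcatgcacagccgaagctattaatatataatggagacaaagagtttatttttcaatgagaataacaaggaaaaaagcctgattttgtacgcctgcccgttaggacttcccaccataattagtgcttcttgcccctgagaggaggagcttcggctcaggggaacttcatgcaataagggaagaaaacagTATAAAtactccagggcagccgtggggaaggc
The window held 41.6% G and C, where all RefSeq windows together held 53.2%. None of the other motifs searched was in these letters.

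The list of hypertrophy products and drivers includes Col10a1, Panx3 and Mef2c and was chosen with earlier results of these data known. Of its 22 tested genes, 9 rose, 2 fell and 11 did not pass, with a median of 0.30 beside 0.08 over all tested genes. Of all tested genes 14.3% were higher and 9.17% lower. The 2 that fell were Col10a1 and Ctgf, the latter at 904 ± 209 against 1263 ± 102 FPKM (-0.51 ± 0.16, adjusted p = 0.0405) with overlap between the sites. Besides Panx3 and Mef2c, the genes that rose included Ihh, the hedgehog signal of prehypertrophic cells, at 94.0 ± 8.92 against 32.9 ± 8.01 FPKM (1.51 ± 0.16). Scin, an actin-severing protein of hypertrophic chondrocytes, was at 98.5 ± 6.79 against 39.7 ± 4.90 FPKM (1.30 ± 0.11, adjusted p = 1.71e-05). Foxa3, one of the Foxa factors of hypertrophy, was at 19.96 ± 2.24 against 10.9 ± 0.815 FPKM (0.81 ± 0.12, adjusted p = 0.000740). Sp7, the osterix gene of osteoblasts and hypertrophic cells, was at 44.8 ± 3.28 against 29.1 ± 4.23 FPKM (0.61 ± 0.12, adjusted p = 0.00493), a call lost with the ribosomal share as a covariate (adjusted p = 0.152). Of the products of late hypertrophy and mineralization, 6 that did not pass lay on both sides of 0. Ibsp, bone sialoprotein, was at 233 ± 34.6 against 233 ± 76.9 FPKM (0.06 ± 0.22, adjusted p = 0.875). Mmp13, the collagenase of terminal chondrocytes, was at 43.8 ± 13.7 against 72.3 ± 21.5 FPKM (-0.71 ± 0.24, adjusted p = 0.0533), and Spp1, osteopontin, at 583 ± 152 against 929 ± 281 (-0.66 ± 0.23, adjusted p = 0.0605). Alpl, the tissue-nonspecific alkaline phosphatase, was at 104 ± 19.9 against 77.7 ± 4.02 FPKM (0.39 ± 0.14, adjusted p = 0.0603). Phospho1, a phosphatase of mineralizing cartilage, differed by 0.31 ± 0.14 (adjusted p = 0.125) and Enpp1, which makes pyrophosphate, by 0.29 ± 0.10 (adjusted p = 0.0608). These 6 were named after their values were seen.

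Most bone cell markers that were called lay lower in vSSC. The 10 osteoblast and osteocyte markers summed to 1172 to 1259 FPKM in vSSC and 4012 to 6021 in lbSSC. Among the 9 tested, 1 rose (Sp7, which is also in the hypertrophy list) and 4 fell. Over all tested genes, 14.3% were higher in vSSC and 9.17% lower. Dmp1, an osteocyte matrix protein, was at 1.43 ± 0.220 against 6.47 ± 2.11 FPKM and Bglap, osteocalcin, at 69.9 ± 31.5 against 207 ± 105. Col1a1, the main bone collagen, was 723 ± 71.5 against 4093 ± 836 FPKM. It held 623 to 788 FPKM of the vSSC sums and 3636 to 5344 of the lbSSC sums, so the gap between the sums rests mainly on this gene. The 4 that did not pass were Ibsp, Bglap2 (-0.60 ± 0.36, adjusted p = 0.237), Phex (0.19 ± 0.21, adjusted p = 0.537) and Mepe (0.38 ± 0.26, adjusted p = 0.315). Sost stayed under 1 FPKM in all libraries. Their part in the lower Col10a1 of vSSC was not tested. Osteoclast markers summed to 55.1 to 77.5 against 107 to 127 FPKM, with 4 of 6 under 1 FPKM throughout. The 6 marrow stroma markers summed to 12.1 to 24.3 against 36.5 to 65.9 FPKM. Of these 5 fell, beside 9.17% of all tested genes. Muscle markers summed to 15.3 to 21.9 against 2.58 to 3.82 FPKM, with 5 of 6 under 1 FPKM and Myh3 at 0. These sums rest mainly on Tnnt3, at 17.9 ± 3.08 against 3.13 ± 0.408 FPKM. Haematopoietic markers summed to 3734 to 5058 against 3825 to 7825 FPKM. These sums rest mainly on the globin genes Hbb-bs and Hba-a1, which did not pass (adjusted p = 0.199 and 0.289). The 5 haematopoietic markers that were called lay higher in vSSC. S100a8 of neutrophils was at 155 ± 37.7 against 30.9 ± 19.7 FPKM, and the part of all these markers in the differences of the 9 genes was not tested.

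Among genes known to hold back hypertrophy and the hedgehog feedback genes, calls went in both directions. Of 11 tested brakes on hypertrophy, 3 rose, 1 fell and 7 did not pass, where 23.5% of all tested genes were called. The median was -0.13, beside 0.08 over all tested genes. Nkx3-2, a repressor of Runx2 that PTHrP maintains, averaged 19.4 ± 1.97 against 8.15 ± 0.959 FPKM (1.16 ± 0.12, adjusted p = 8.39e-05). Ccnd1, cyclin D1, was at 48.2 ± 3.32 against 20.9 ± 4.17 FPKM (1.18 ± 0.14, adjusted p = 0.000160). Bcl2, a survival factor downstream of PTHrP, fell with 3.05 ± 0.541 against 5.08 ± 0.392 FPKM (-0.60 ± 0.14, adjusted p = 0.0132), a call lost with the ribosomal share as a covariate (adjusted p = 0.246). Twist1 was called at 0.46 ± 0.13, and lost that call in 10 of 21 alternatives. Of 7 tested genes of the Ihh loop 3 rose with Ihh among them, 1 fell and 3 did not pass, with a median of -0.16. Hhip was at 38.8 ± 4.56 against 18.6 ± 0.715 FPKM and Ptch1 at 62.3 ± 16.0 against 36.2 ± 1.14. The call of Ptch1 was lost under quantile normalization (adjusted p = 0.0567). Gli2 was the member that fell (-0.77 ± 0.24, adjusted p = 0.0390), a call lost in 10 of 20 alternatives.

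Of 12 tested genes that cyclic AMP induces through CREB, 3 fell, 9 did not pass and none rose, a share of calls near the 23.5% of all tested genes, and the median was -0.21. The 3 were the orphan receptors Nr4a1 (283 ± 163 against 562 ± 117 FPKM, adjusted p = 0.0293), Nr4a2 (16.7 ± 10.3 against 38.3 ± 20.2, adjusted p = 0.0471) and Nr4a3 (5.97 ± 5.32 against 17.2 ± 10.0, adjusted p = 0.0432). In all 3 the sites overlapped, and vSSC replicates 1 and 3 held the 2 lowest values. Without those libraries the 3 calls were lost. Over all 21 alternatives Nr4a1 kept its call in 13, and Nr4a2 and Nr4a3 in 8 each. Counting each gene once, the lists held 102 tested genes, of which 21 rose and 19 fell, 39.2% against 23.5% of all tested genes, with a median of -0.07. The lists were chosen with earlier results of these data known, and nothing particular to them is read from that share.

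**Figure D3:**
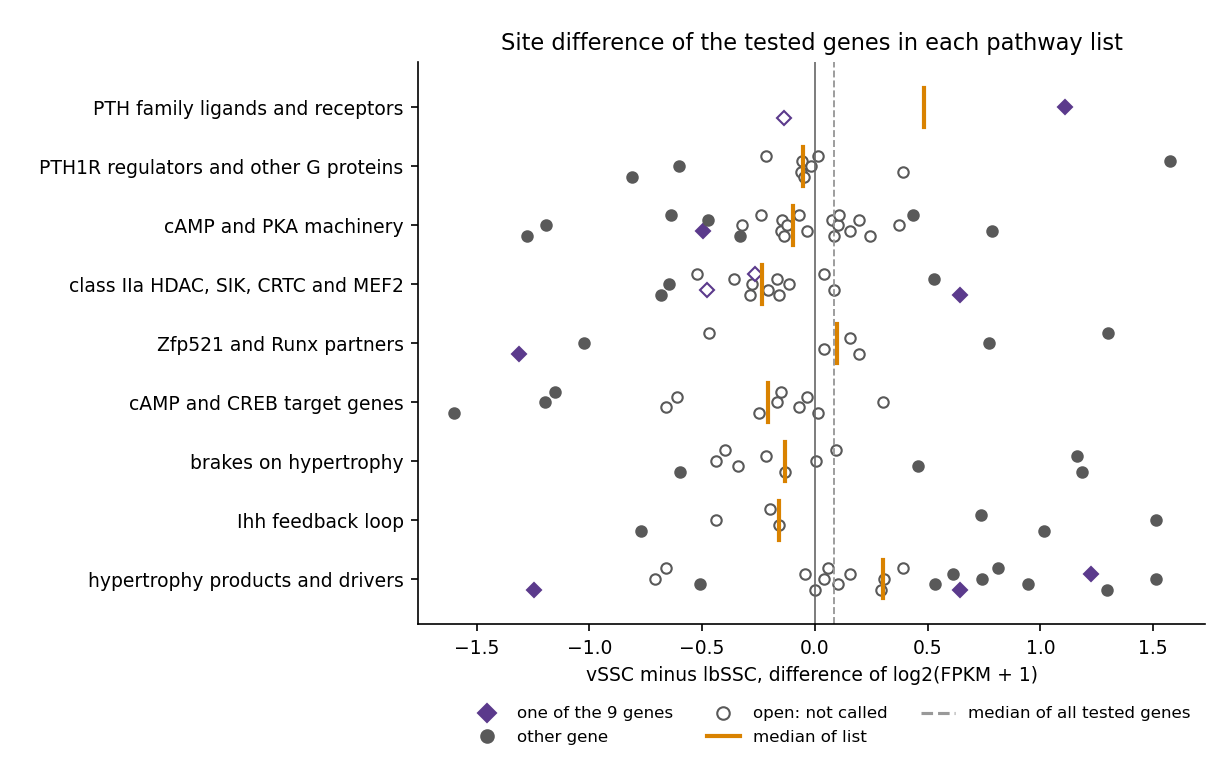
Site difference (vSSC minus lbSSC of log2(FPKM + 1)) of every tested gene in each pathway list, with diamonds for the 9 genes, filled symbols for called genes, an orange line at the list median and a dashed line at the median of all tested genes, 0.08. Each list except that of cyclic AMP and CREB target genes has called genes to the right of 0, and the hypertrophy list has Panx3 at 1.23 and Col10a1 at -1.25.

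The site differences of the 9 genes were compared over 21 other ways of processing. Pth1r, Panx3, Zfp521 and Col10a1 kept their direction and call in all of them. Pth1r ranged from 0.79 to 1.22, Panx3 from 0.84 to 1.32, Zfp521 from -1.49 to -1.01 and Col10a1 from -1.50 to -1.04. With the ribosomal share as a covariate 4 of the 9 genes were called, beside 613 of all 10729 tested genes. Without vSSC replicates 1 and 3 it was 5 of the 9, beside 1095 of all 10729.

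**Figure D4:**
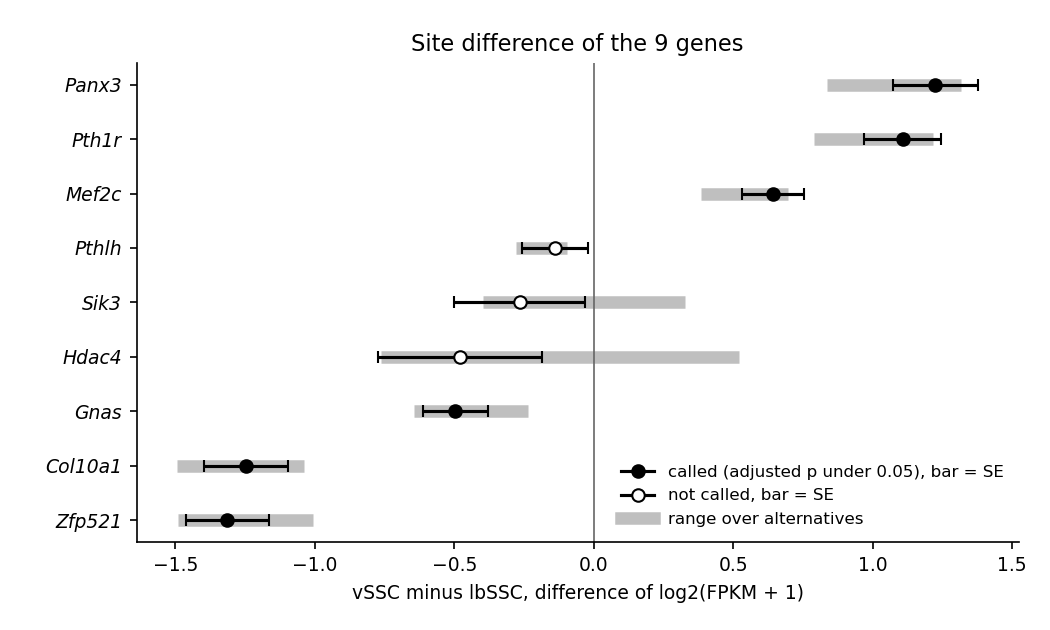
Site difference of the 9 genes in log2(FPKM + 1), with points at the estimate, thin bars for the SE, filled points for called genes and grey bars for the range over the alternatives. The grey bars of Hdac4, up to 0.52, and of Sik3, up to 0.33, cross 0, and those of the 7 other genes do not.

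The ribosomal protein share moved with the site, and its ranges at the 2 sites met only near 18.2 and 18.3%. Hdac4 was lowest in vSSC replicate 3, with a share of 21.3%, and high in lbSSC replicates 3 and 4, with 15.6% each. Gnas was lower in the 2 vSSC libraries with shares of 21.1 and 21.3% than in the other 2. The share and the site are nearly confounded in these libraries, and their parts cannot be told apart.

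**Figure D5:**
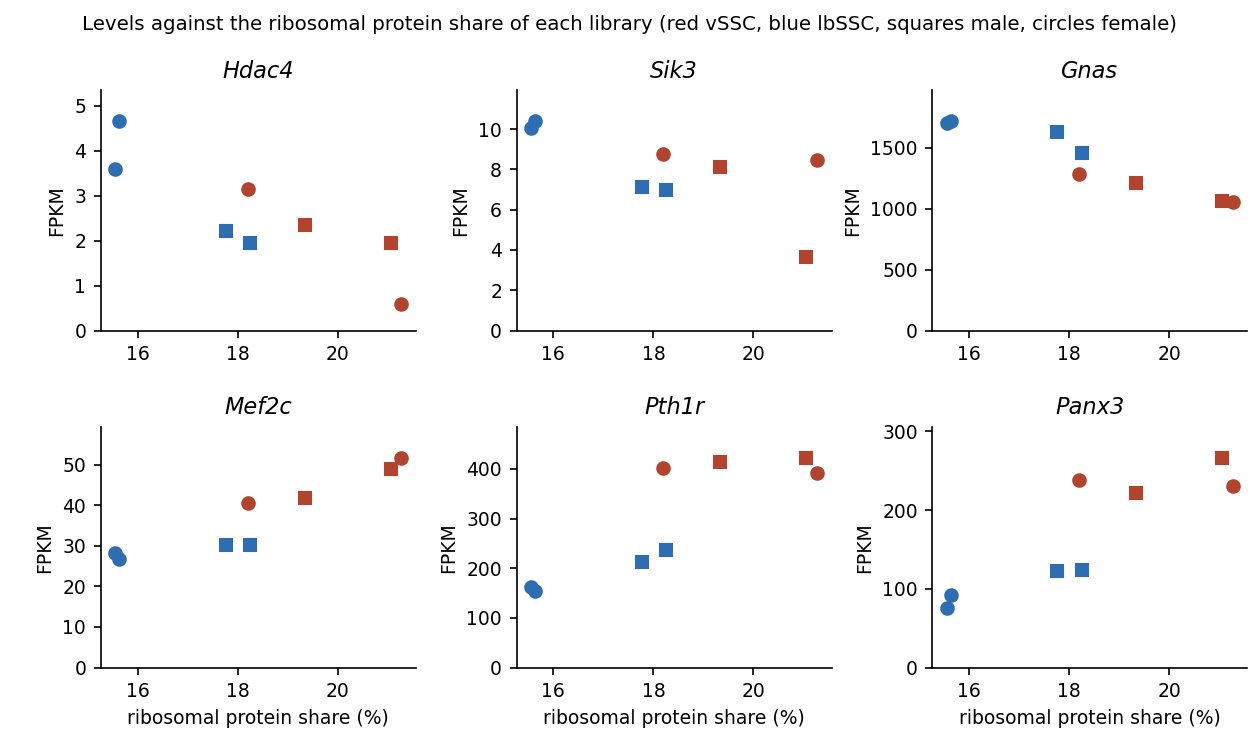
FPKM of 6 of the genes against the percentage of FPKM in ribosomal protein genes, 1 point a library, with vSSC in red, lbSSC in blue, squares for male and circles for female. The share runs from 18.2 to 21.3% in vSSC and from 15.6 to 18.3% in lbSSC, so that the sites lie almost side by side on the horizontal axis.

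Sex was compared with site as a covariate. None of the 9 genes was called, and 5 of all tested genes were (0.0466%). By unadjusted p under 0.05, 3 of the 9 genes and 892 of all tested genes (8.31%) differed in limma. Sik3 differed by -0.52 ± 0.19 as male minus female, lower in males (unadjusted p = 0.0181, adjusted p = 0.567). Pth1r was higher in males by 0.29 ± 0.11 (unadjusted p = 0.0257, adjusted p = 0.585) and Panx3 by 0.30 ± 0.13 (unadjusted p = 0.0388, adjusted p = 0.585).

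The interaction of site and sex was called by limma in none of the 9 genes and in 0 of all tested genes (0%). Its unadjusted p was under 0.05 in 3 of the 9 and in 405 of all tested genes (3.77%). For Pth1r the lbSSC males were at 212 to 237 FPKM and the lbSSC females at 155 to 162, whereas vSSC males and females lay at 414 to 422 and 393 to 401. The site difference in males minus that in females was -0.42 ± 0.19 (unadjusted p = 0.0487, adjusted p = 0.981). Panx3 had the same order, with 123 in both lbSSC males and 75.4 to 92.7 in the females (-0.50 ± 0.22, unadjusted p = 0.0472, adjusted p = 0.981). Zfp521 was at 10.6 to 11.3 in lbSSC males and 14.8 to 14.9 in females, against 4.82 to 5.07 and 3.77 to 4.57 in vSSC (0.61 ± 0.25, unadjusted p = 0.0335, adjusted p = 0.981). In lbSSC the sexes also differed in ribosomal share, with 17.8 and 18.3% in males and 15.6% in both females, and its part was not tested.

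For Pthlh, Pth1r, Col10a1 and Panx3 the 3 tested genes with the most similar profile over the 8 libraries were found among 10455 genes with a symbol other than a predicted gene model number. For Pth1r these were Insig1, a regulator of sterol synthesis, at a root mean square difference of 0.07, Kctd10 at 0.10 and Ccnd1 at 0.11. Insig1 averaged 123 against 59.7 FPKM. For Panx3 they were the amino acid transporter Slc38a4 at 0.06, Ccnd1 at 0.10 and Cks2, a cell cycle protein, at 0.11. Ccnd1 was thus near both. For Col10a1 the nearest were less close, the chemokine Cxcl14 at 0.16, the muscle glycogen phosphorylase Pygm at 0.18 and Hoxa11 at 0.19. Pygm averaged only 0.688 against 2.73 FPKM, a level at which the scale compresses changes. For Pthlh they were Otud5, Epm2aip1 and Mef2a at 0.06, 0.06 and 0.07, all with small site differences. These distances describe 8 libraries of 2 sites and carry no test.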

How the data were processed

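Groups, replicate numbers and sex were taken from the labels. Per the labels' protocols, cDNA was made with SMART-Seq v4 and tagmented with Nextera XT. Per the submitters' processing notes, the tools were bcl2fastq 2.19, STAR 2.5.2 and Cufflinks 2.1.1, and the build GRCm38. For settings and annotation release the sources used here give nothing. The authors deposited FPKM for each protein-coding gene, a unit in which a gain in abundant genes lowers all others.

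No pair of libraries held identical values. Low FPKM values shared no common step (at most 8 genes had one ratio between a pair of libraries), so reads were not recovered and no counting interval is given. Listed starts were raised by 1 and then equalled GENCODE M21 for all 9 genes, and the ends for 7. Promoter sequences are from RefSeq on GRCm38.p6.

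Of 22053 rows, 10729 genes with at least 1 FPKM in at least 4 libraries were tested on log2(FPKM + 1) with limma 3.58.1 (R 4.3.3, empirical Bayes, variance trend), for site, for sex with site as a covariate, and for their interaction. The script was tested on simulated data. Named were all 9 genes, up to 4 further called genes per pathway list by smallest p, and the 3 most alike genes of 4 members. Any gene named beyond these was chosen after its values were seen. The members and lists were chosen with earlier results of these data known. The 21 site alternatives changed pseudocount (0.1 or 0.01), filter (none, or 5 FPKM), scaling (3 ways), variance trend, library weights, covariates (sex, or the share of 77 ribosomal protein genes) or the block, or left out libraries.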

Additional observations from a re-analysis of the deposited data

Results flagged for a closer look

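Within the groups of 4 libraries, 2 of 18 sets of values for the 9 genes held a library far from the other 3, by a test on the gap to the nearest value that marks about 1 in 20 sets by chance. Sik3 in vSSC replicate 1 was 3.64 FPKM, where the other vSSC libraries lay between 8.12 and 8.77, a gap of 0.873 of the range. Col10a1 in lbSSC replicate 1 was 405 FPKM, where the other lbSSC libraries lay between 291 and 310.4, a gap of 0.831 of the range. Without vSSC replicate 1 the site difference of Sik3 was -0.0100 (adjusted p = 0.973 by limma) in place of -0.27, so the printed difference rests on that library. Col10a1 kept its call without lbSSC replicate 1.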

How the results depend on the processing

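With the share of ribosomal protein genes as a covariate, 613 genes passed instead of 2518. Of the pathway genes, 12 rose instead of 21 and 5 fell instead of 19. Gnas and Mef2c lost their calls, and 6 genes changed sign: Hdac4 (0.52), Sik3 (0.33), Gli2 (0.073), Nr4a1 (0.013), Nr4a2 (0.37) and Nr4a3 (0.28). Share and site are nearly confounded. Without vSSC replicates 1 and 3, the libraries with the highest shares, 1095 genes passed, 8 pathway genes fell and Gnas lost its call. With no filter on low values 11 pathway genes fell. Leaving out 1 library at a time gave 1534 to 2991 called genes (lbSSC replicate 3 left 1534 when dropped, lbSSC replicate 4 left 1589, vSSC replicate 3 left 1646 and vSSC replicate 1 left 1673). Pathway genes that fell then numbered 8 to 22 (8 on dropping lbSSC replicate 3, 10 for vSSC replicate 3, 11 for lbSSC replicate 4, and 12 for vSSC replicate 1 or lbSSC replicate 2). The cause was not tested. Of the 27 further pathway genes named by rule, 9 kept their call in every alternative, 17 lost it with the ribosomal share and 11 without vSSC replicates 1 and 3. Other scalings moved the median of all genes from 0.08 to 0.01 (median of ratios), 0.03 (quantile) and -0.04 (one sum), and the share of calls that were higher in vSSC from 60.9% to 51.9%, 50% and 42.4%, while all 9 genes kept their site direction. Uncalled sex differences changed sign for Mef2c (-0.0070, -0.037 and -0.024 under median-of-ratios, quantile and one-sum scaling) and Col10a1 (-0.0088, quantile), as did the interaction of Sik3 (0.032, one sum). Hdac4 was not tested with the filter at 5 FPKM. With the replicate number as a block 3194 genes and the same number of members, 6, were called. Same-numbered libraries correlated across genes at 0.257, -0.0878, -0.0639 and 0.435, and not every library correlated best with its own number, so the numbers were not taken to pair the samples. Read depth is unknown, so the counting error of low genes such as Hdac4 is not given.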
